A study of Chlamydomonas reinhardtii with 18 samples.

Results

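The effect of nitrite after 24 h was set against its effect in the early hours in Chlamydomonas reinhardtii, a single-celled green alga, here of the strain 6145c. The late effect of a gene is its level at 24 h in flasks that received 10 mM nitrite over its level at 24 h in flasks that received none. The early effect is the mean of the same log2 ratio at 15 min and at 3 h. The quantity described is the late effect minus the early effect, on the log2 scale, taken for every gene from all 18 libraries of the 18 in the series. A positive value means that nitrite raised the transcript more, or lowered it less, at 24 h than early on. The libraries form 6 groups of 3, namely nitrite at 15 min, 3 h and 24 h and control at 15 min, 3 h and 24 h. Both arms, of the same strain, stood in darkness before and after nitrite was given. The series' design text gives 3 flasks per arm as the replicates, so p-values rest on the spread between cultures of this strain. Each flask supplied all 3 times, and no label says whether the number of a library marks its flask. The main fit treats the 18 libraries as independent, and fits that take the number as the flask are given as alternatives. Of 17766 features, 13564 had enough reads to test.

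Nitrite is an intermediate of nitrate assimilation. Nitrate reductase forms it, nitrite reductase turns it into ammonium, and glutamine synthetase and glutamate synthase build the ammonium into amino acids. Nitrite can also be reduced to nitric oxide, a signalling molecule that is toxic at high levels, and the alga can reduce nitric oxide to nitrous oxide, the gas named in the title of the series. In darkness the cells live on respiration and fermentation of stored or supplied carbon instead of photosynthesis. The deposited tables and the reference gene table pair no nuclear identifier with a name or product, so genes are given by identifier. Functions are given only for lists of loci entered from general knowledge, which neither source can check.

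Each library held 6695500 to 8469882 reads assigned to genes. TMM scaling factors, which correct for differences in composition, were 0.66 to 0.822 in the nitrite libraries of 24 h, 0.923 to 1.08 in the control libraries of 24 h, and 0.604 to 1.437 over all 18. In a principal component analysis of log2 CPM, the 1st component held 63.3% of the variance and separated 24 h from the early times, on which nitrite at 24 h spanned 117 to 121 and control at 24 h 51.2 to 69. On the 2nd component (12.5%) the library labelled nitrite 15 min number 2 lay at -12.4, beside nitrite 3 h numbers 1 and 3 (-13.4 and -15.6). The library labelled nitrite 3 h number 2 lay at 46.2, beside nitrite 15 min numbers 1 and 3 (43.4 and 42.5). The library labelled control 3 h number 3 had the lowest scaling factor and 36.5% of its reads with more than 1 alignment. These 3 outlying libraries were kept under their labels, and values without them are given for results they move. Both nitrite libraries enter the same early mean, whichever of the early times they are counted under. The spread within groups, on which the p-values rest, does depend on that time. Counts without these 2 libraries are given with the alternatives. Whether their labels were exchanged was not tested, and values for 15 min or 3 h alone rest on the labels as given.

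The nitrite effect at 24 h differed from the early effect for 1330 genes, 9.81% of those tested (edgeR quasi-likelihood test, Benjamini-Hochberg adjusted p under 0.05), with 690 higher late (5.09%) and 640 lower late (4.72%). Of the 1330, 958 (7.06% of all tested) were at least 2-fold and 182 at least 4-fold. The called values ran from -4.34 to 5.05 on the log2 scale. The median SE over all tested features was 0.34, so small differences seldom passed and the sizes of called genes are partly set by the test. In a test against a 1.5-fold difference (edgeR glmTreat), 275 genes passed. The 690 had a median late effect of 1.25 and a median early effect of 0.12, and the 640 had a median late effect of -1.37 and a median early effect of -0.07. In 351 of the 690 and 403 of the 640 the early effect was within 1.2-fold of no change, shares of 50.9% and 63% beside 55.8% of all tested features. Over all features the nitrite effect was called for 3985 genes (29.4%) at 24 h, 15.4% higher and 13.9% lower with nitrite, and for 798 genes (5.88%) as the mean of the early times, 3.97% higher and 1.92% lower. Without scaling the count was 1428, and only 724 of the 1330 were among these calls. Of the 1428, 6.16% were higher late, against 51.9% with TMM, and the median over all genes moved from -0.05 to -0.59. The number of genes higher late therefore depends on scaling, and the values without scaling below are to be read against that lower median.

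The libraries behind these calls hardly overlapped at 24 h. The call itself uses the difference between these libraries, so the counts below are a description and no separate support. In 673 of the 690 genes that were higher late, every nitrite library of 24 h lay above every control library of 24 h, and in 611 they lay above all the other 15 libraries. In 627 of the 640 genes that were lower late, every nitrite library of 24 h lay below every control library of 24 h, and in 555 they lay below all the other 15. Among the 12234 genes not called, the nitrite libraries of 24 h lay above every control library of 24 h in 21.3% and below every one in 20.6%. In the same genes the nitrite libraries of 24 h lay above all the other 15 in 14% and below all of them in 11.1%. In the early hours the 6 nitrite libraries lay above all 6 control libraries in 44 of the 690 (6.38%) and below all of them in 9 (1.3%). Of the 640, the same held for 5 above (0.781%) and 10 below (1.56%), and of the genes not called for 1.34% above and 1.03% below. The early and late nitrite values of the called genes are shown in the plot of late against early effect.

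**Figure D1:**
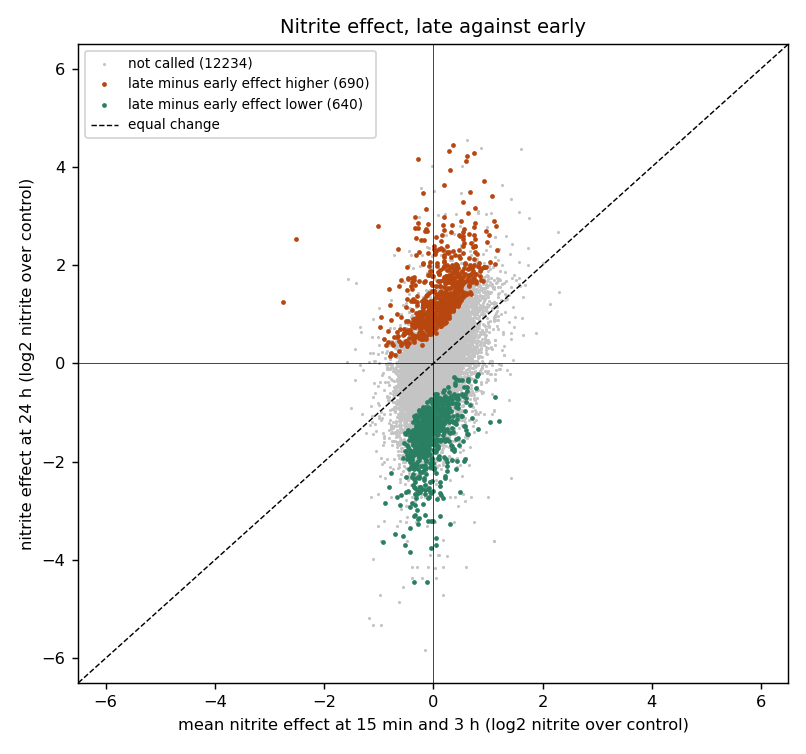
Each point is 1 of 13564 tested genes, with the mean nitrite effect at 15 min and 3 h (log2 nitrite over control) on the horizontal axis and the nitrite effect at 24 h on the vertical axis. Orange points are the 690 genes called higher late, green points the 640 called lower late, grey points the 12234 not called, and the dashed line marks equal effects. The called genes stretch along the vertical axis, and 1 orange point with an early effect below -2 and a late effect above 2 is Cre05.g238400.

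The 2 highest values among genes called in all 18 fits that leave out a library, with a mean log2 CPM of at least 1, were those of Cre05.g238400 and Cre04.g217951. Cre04.g217951 (chromosome 4, 674366 to 677377) stood at 123, 121 and 113 CPM in the nitrite libraries of 24 h, against 4.83, 5.35 and 6.27 CPM in the control libraries of 24 h. In the early nitrite libraries it stood at 4.81, 2.73 and 4.66 CPM at 15 min and 2.14, 5.26 and 1.85 CPM at 3 h, against 1.92, 3.86 and 3.44 CPM and 2.52, 2.41 and 2.97 CPM in the control libraries. The 3 nitrite libraries of 24 h stood far above the other 15, the early arms overlapped, and the control libraries of 24 h lay above all 6 early control libraries. The late effect of Cre04.g217951 was 4.43 (SE 0.29) and its early effect 0.36 (SE 0.24). The difference of 4.07 (SE 0.37, edgeR adjusted p = 1.307e-06), or 16.8-fold, ran from 3.95 to 4.39 with any library left out and was 3.49 without scaling.

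Cre05.g238400 (chromosome 5, 3008696 to 3012405) turned round. Early on it was low with nitrite, at 5.37, 1.82 and 3.88 CPM at 15 min and 3, 4.12 and 4.07 CPM at 3 h, against 18.6, 13.8 and 13.3 CPM and 28.1, 34.3 and 26.2 CPM in the control libraries. At 24 h it was high with nitrite, at 59, 17.9 and 7.4 CPM, against 3.92, 6.22 and 4.22 CPM in the control libraries. The arms did not overlap at any of the 3 times, but the nitrite libraries of 24 h were far apart from each other. The late effect was 2.54 (SE 0.54, edgeR adjusted p = 0.002221) and the early effect -2.52 (SE 0.38, edgeR adjusted p = 0.003682). The difference of 5.05 (SE 0.67, edgeR adjusted p = 0.0002382) became 3.94 without nitrite 24 h number 1, the library at 59 CPM.

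Its neighbour Cre05.g238450 (chromosome 5, 3012894 to 3018335), the highest of the genes that changed in the nitrite arm alone, had a like course at lower levels. It stood at 18.7, 10.1 and 4.57 CPM in the nitrite libraries of 24 h, against 3.66, 5.47 and 4.63 CPM in the control libraries of 24 h. Its 6 early nitrite libraries ran from 0.429 to 1.68 CPM and its 6 early control libraries from 3.86 to 11 CPM. The arms overlapped at 24 h through nitrite number 3, and did not overlap early. The difference was 4.01 (SE 0.50, edgeR adjusted p = 3.599e-05), from a late effect of 1.26 and an early effect of -2.75.

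The 2 lowest values under the same rule were those of Cre08.g358560 and Cre07.g325755. Cre08.g358560 (chromosome 8, 270990 to 278300) stood at 0.538, 0.682 and 0.945 CPM in the nitrite libraries of 24 h, against 24.7, 20.1 and 4.09 CPM in the control libraries of 24 h. Early values were 27.8, 11.7 and 27.4 CPM at 15 min and 11.1, 30.4 and 9.63 CPM at 3 h with nitrite, against 26.3, 20.2 and 18.6 CPM and 24.5, 21.4 and 16.1 CPM without. The nitrite libraries of 24 h lay below all others, and control 24 h number 3 lay nearest to them. The early arms overlapped, and within the nitrite arm number 2 lay with the other time at both 15 min and 3 h. The difference was -4.34 (SE 0.87, edgeR adjusted p = 0.0056), and -4.03 without the 3 outlying libraries.

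Cre07.g325755 (chromosome 7, 1977115 to 1979183) had 1 read in the nitrite group of 24 h, against 36 in the control group of 24 h. The control group over the nitrite group came to 27.8, with an exact 95% interval of 4.68 to 1130 that covers counting error only. Early levels ran from 10.1 to 14 CPM in the 6 nitrite libraries and from 11.2 to 25.2 CPM in the 6 control libraries, so the arms overlapped early. The fitted difference of -4.1 (SE 0.95, edgeR adjusted p = 0.008355) rests on that 1 read. It was -6.32 without nitrite 24 h number 2, which holds the read.

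The called genes fall into patterns by which of their effects was called, a description only, since both effects enter the tested difference. The late effect alone was called for 1156 of the 1330 (86.9%), 566 of them higher late and 590 lower. Both effects were called in the same direction for 96, of which 80 were raised by nitrite early and more strongly late, and 16 were lowered at both times. The 80 had a median late effect of 1.77 and a median early effect of 0.68, and the 16 had -1.72 late and -0.5 early. The early effect alone was called for 31, neither effect for 35, and both in opposite directions for 12, of which 11 had been lower with nitrite early and were higher late. The last number was 47 without control 3 h number 1, and between 3 and 15 without any other library. The share called in the same direction ran from 3.55% of the calls, without control 15 min number 1, to 8.69%, without control 24 h number 3. Without scaling it was 0%, and 1 gene was called in opposite directions.

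Of the genes higher with nitrite early and further raised late, the highest under the rule for naming was Cre10.g428966 (chromosome 10, 1519916 to 1528781). It stood at 242, 346 and 251 CPM in the nitrite libraries of 24 h, against 14.6, 15.8 and 33.5 CPM in the control libraries of 24 h. The 6 early nitrite libraries ran from 7.16 to 13.7 CPM and the 6 early control libraries from 3.21 to 6.55 CPM, with no overlap. Its late effect was 3.72 and its early effect 0.93, and the difference was 2.78 (SE 0.38, edgeR adjusted p = 9.497e-05). The lowest of the genes lower at both times, Cre10.g463370 (chromosome 10, 6072767 to 6077625), stood at 1.08, 1.19 and 1.89 CPM in the nitrite libraries of 24 h, against 22.2, 22.5 and 8.04 CPM in the control libraries of 24 h. Its 6 early nitrite libraries ran from 7.27 to 15.3 CPM and its 6 early control libraries from 14 to 30.5 CPM, with some overlap. Its late effect was -3.64, its early effect -0.93, and the difference -2.71 (SE 0.49, edgeR adjusted p = 0.001813).

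In genes with an early effect alone the effect at 24 h did not pass the test. Cre02.g143400 (chromosome 2, 7630058 to 7640545) stood at 36.2 to 41.4 CPM in the 6 early nitrite libraries, against 23.2 to 31.3 CPM in the 6 early control libraries. At 24 h it stood at 15.4, 14.5 and 15.1 CPM with nitrite, against 19.7, 18.3 and 18.9 CPM without. The arms did not overlap early or late, with nitrite above the control early and below it late. The late effect was -0.34 (edgeR adjusted p = 0.1092), the early effect 0.52, and the difference was -0.86 (SE 0.19, edgeR adjusted p = 0.005965). Cre10.g447050 (chromosome 10, 3812491 to 3814657) went the other way. Its levels ran from 5.8 to 7.38 CPM in the 6 early nitrite libraries and from 8.92 to 15.1 CPM in the 6 early control libraries, and were 17, 8.52 and 10.4 CPM with nitrite and 7.06, 10.3 and 7.9 CPM without at 24 h. The difference of 1.41 (SE 0.29, edgeR adjusted p = 0.004217) ended as a call without scaling (0.79, edgeR adjusted p = 0.143). The 1 gene that was called higher early and lower late, Cre16.g689001 (chromosome 16, 3728430 to 3731902), stood at 18.5, 25.1 and 28.5 CPM with nitrite at 24 h, against 30.8, 32.2 and 37.3 CPM without. Its early nitrite libraries ran from 41 to 52.6 CPM and its early control libraries from 21.5 to 37.8 CPM, and the difference was -1.08 (SE 0.22, edgeR adjusted p = 0.003317).

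**Figure D2:**
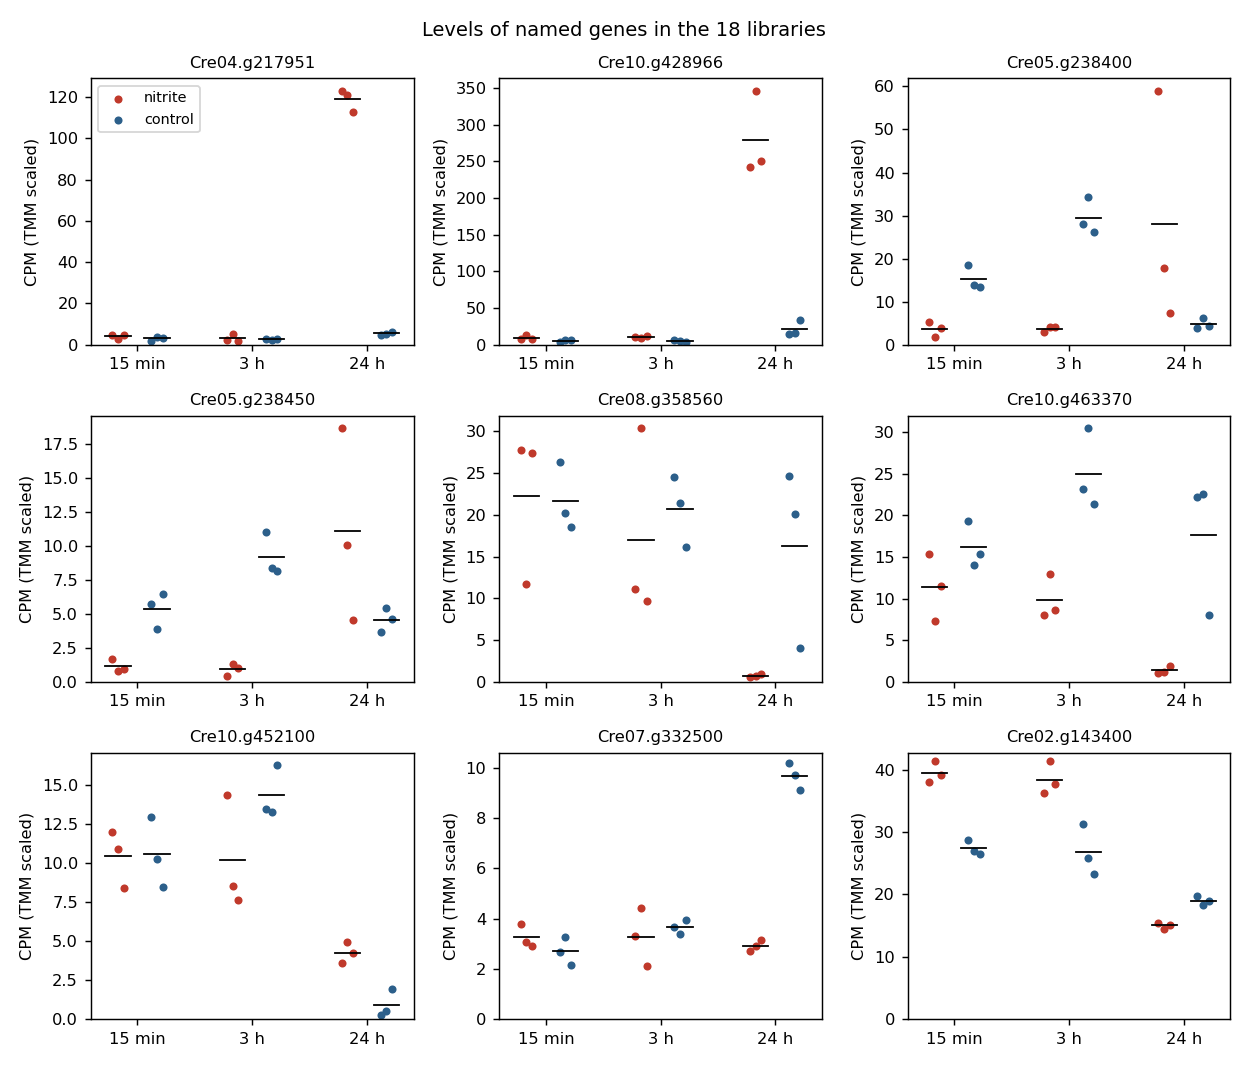
Level of 9 named genes in each of the 18 libraries, in TMM-scaled CPM on a linear axis, against time after nitrite was given. Nitrite libraries are red and stand left of the control libraries, in blue, and each bar is the mean of 3 libraries. The nitrite points of 24 h lie above all others for Cre04.g217951 and Cre10.g428966 and below all others for Cre08.g358560 and Cre10.g463370, while for Cre07.g332500 the control points of 24 h lie apart.

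The same differences can be read as the change from the early times to 24 h in each arm, and in most called genes the nitrite arm had moved further. Over all tested features, 8540 (63%) changed between the early times and 24 h in the nitrite arm, 30% higher and 32.9% lower at 24 h, and 6495 (47.9%) in the control arm, 23.8% higher and 24.1% lower. Of the 1330, 771 (58%) changed in the same direction in both arms and further with nitrite, 411 of them upward and 360 downward. In these the median change was 2.16 in the nitrite arm and 1.02 in the control arm for the genes higher late, and -2.53 in the nitrite arm and -1.17 in the control arm for the genes lower late. A further 446 (33.5%) changed in the nitrite arm alone, 215 upward and 231 downward, with median control changes of 0.12 and -0.12. In 76 genes the control arm alone changed, in 27 the arms changed in opposite directions, in 9 both changed and the control further, and in 1 neither change was called. The shares rest on the call rule: where a change of at least 2-fold in size, with no test, stood for a call, both arms with nitrite further made up 32.5% and the nitrite arm alone 52.3%.

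**Figure D3:**
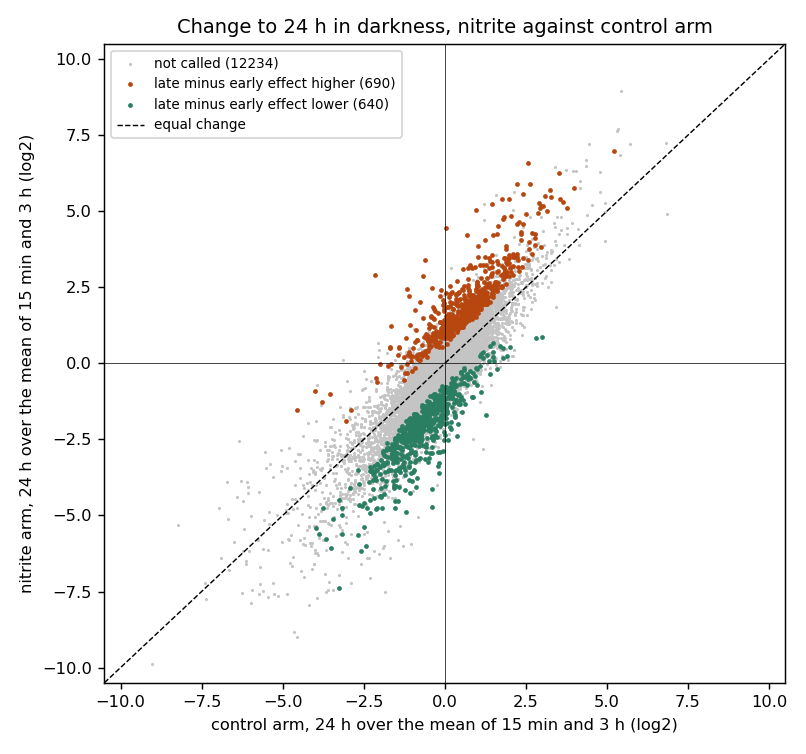
Each point is 1 of 13564 tested genes, with the change from the mean of 15 min and 3 h to 24 h (log2) in the control arm on the horizontal axis and in the nitrite arm on the vertical axis. Orange and green points are the genes called higher and lower late, and the dashed line marks equal change in both arms. Most coloured points lie in the upper right and lower left, farther from 0 in the nitrite arm than in the control arm, as for the 771 genes that moved further with nitrite.

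In a minority the control arm did the moving. Cre10.g452100 (chromosome 10, 4520613 to 4523220) fell further without nitrite. It stood at 3.59, 4.94 and 4.25 CPM in the nitrite libraries of 24 h, against 0.261, 0.497 and 1.91 CPM in the control libraries of 24 h, and all 12 early libraries lay between 7.66 and 16.3 CPM. The difference was 2.53 (SE 0.49, edgeR adjusted p = 0.002708), and 3.69 without control 24 h number 3. Cre03.g145727 (chromosome 3, 622948 to 628579) fell in the control arm alone, with 6.64, 7.16 and 7.87 CPM in the nitrite libraries of 24 h, against 2.35, 0.995 and 3.68 CPM in the control libraries of 24 h. Its 12 early libraries lay between 5.19 and 11.9 CPM. The difference was 1.68 (SE 0.37, edgeR adjusted p = 0.006448), and it did not pass the test without scaling (1.14, edgeR adjusted p = 0.102).

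Cre07.g332500 (chromosome 7, 2891328 to 2897792) rose in the control arm alone. It stood at 2.69, 2.9 and 3.15 CPM in the nitrite libraries of 24 h, against 10.2, 9.7 and 9.13 CPM in the control libraries of 24 h. All 12 early libraries lay between 2.1 and 4.4 CPM, so the control libraries of 24 h stood alone. The difference was -1.78 (SE 0.31, edgeR adjusted p = 0.001122). In Cre13.g590626 (chromosome 13, 3927679 to 3929739) the arms moved apart, to 1.61, 0.852 and 1.42 CPM with nitrite at 24 h, against 4.31, 4.23 and 4.5 CPM without. Its early nitrite libraries ran from 1.94 to 3.46 CPM and its early control libraries from 0.708 to 3.71 CPM, and the difference was -2.07 (SE 0.48, edgeR adjusted p = 0.008366).

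In the lists nearest to nitrite itself no difference between late and early effects was called. The nitrate and nitrite list was entered for the reductases and transporters of both ions. It had 0 of 4 tested members called, of 7 entered, beside 9.81% of all features. Its fitted values were below 0 in 4 of 4, as were 7238 of all 13564 tested features. The other entered loci, Cre09.g410750, Cre09.g410850 and Cre09.g410950, had at most 20 reads in any group and were not tested. Nothing can be said of their late and early effects. Of the tested members, Cre09.g410800 and Cre09.g410900 had the lowest mean levels. Cre09.g410800 (chromosome 9, 6986662 to 6990589) had 0 reads in the nitrite group of 24 h, against 4 in the control group of 24 h, which makes it at least 1.03-fold lower with a floor of 3 reads over the group. Its early levels ran from 0.574 to 2.73 CPM with nitrite and from 1.05 to 6.4 CPM without. Cre09.g410900 (chromosome 9, 6995340 to 6997448) had 0 reads in the nitrite group of 24 h, against 10 in the control group of 24 h, at least 2.57-fold lower. The fitted differences of this pair depend on the prior count and are no bounds. With the floor of 3 reads in place of 0 they come to 0.97 and -0.70, so the direction of the first is not fixed. The list's median of -1.91 becomes -0.79 with these values, beside -0.05 over all tested features.

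The other tested members were Cre03.g177700 (chromosome 3, 4693035 to 4696776) and Cre12.g541250 (chromosome 12, 9274279 to 9279443). Cre03.g177700 stood at 3.77, 3.41 and 4.57 CPM with nitrite at 24 h, against 7.06, 9.45 and 5.99 CPM without, and its difference was -1.19 (SE 0.59, edgeR adjusted p = 0.2154). Its early control libraries held 1 low value, 0.247 CPM in control 3 h number 3, and without the 3 outlying libraries it was called (-0.98, edgeR adjusted p = 0.0352). Cre12.g541250 stood at 0.717, 1.02 and 1.42 CPM with nitrite at 24 h, against 1.7, 1.99 and 2.32 CPM without, and its difference was -0.87 (SE 0.42, edgeR adjusted p = 0.1992).

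The nitric oxide list, entered for proteins that handle this gas, among them truncated hemoglobins and a nitric oxide reductase of the cytochrome P450 family, had 0 of 5 members called, and its values ran from -1.28 to 0.24 with a median of 0.18. By 24 h 3 of the 5 had fallen in the nitrite arm and 2 in the control arm, where 32.9% and 24.1% of all features had, and none had risen. Cre01.g007950 (chromosome 1, 1533342 to 1539057) stood at 178, 216 and 250 CPM in the nitrite libraries of 24 h, against 184, 184 and 321 CPM in the control libraries of 24 h. Its early libraries ran from 457 to 694 CPM with nitrite and from 375 to 558 CPM without. It fell in both arms, by 1.36 with nitrite and by 0.97 without, and the difference of the effects was -0.40 (SE 0.28, edgeR adjusted p = 0.3929). Cre14.g615400 (chromosome 14, 1130388 to 1132606) stood at 219, 164 and 169 CPM with nitrite at 24 h, against 140, 140 and 115 CPM without, and its difference was 0.18 (SE 0.23).

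Cre14.g615350 (chromosome 14, 1125856 to 1128338) was the lowest of the list, with 5.38, 3.75 and 3.78 CPM in the nitrite libraries of 24 h, against 17.4, 16.7 and 4.5 CPM in the control libraries of 24 h. Its early nitrite libraries were split, at 12.3, 40.8 and 8.15 CPM at 15 min and 40.8, 9.86 and 39.1 CPM at 3 h, with number 2 of each time lying with the other time. The difference was -1.28 (SE 0.77, edgeR adjusted p = 0.3161), and -0.97 without the 3 outlying libraries. Cre12.g531900 (chromosome 12, 5589465 to 5596118) fell to 0.538, 0.17 and 0.472 CPM with nitrite, against 0.523, 0.249 and 0.409 CPM without, and differed by 0.19 (SE 1). Cre16.g691800 (chromosome 16, 646154 to 656039) stayed between 22.5 and 38 CPM in all 18 libraries and differed by 0.24 (SE 0.23).

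Further down the assimilation path, the ammonium and glutamate list was entered for glutamine synthetases, glutamate synthases, glutamate dehydrogenase and ammonium transporters. It had 1 of 7 tested members called, lower late (14.3%, beside 9.81% of all features called and 4.72% called lower). Cre02.g113200 (chromosome 2, 6098426 to 6103996) stood at 79.8, 60.5 and 83.9 CPM in the nitrite libraries of 24 h, against 128, 136 and 102 CPM in the control libraries of 24 h. The 12 early libraries ran from 48.1 to 66.6 CPM and the arms overlapped there. It rose in darkness in both arms, by 0.39 with nitrite and 1.17 without, and the difference was -0.78 (SE 0.22, edgeR adjusted p = 0.0251). The call ended without nitrite 24 h number 1 or 2 (edgeR adjusted p = 0.056 and 0.11) or control 24 h number 1 or 2 (0.0749 and 0.0924). With the 3 outlying libraries left out, 4 of the 7 members were called, 2 in each direction, when 15.8% of all features were.

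The autophagy list was entered for proteins of the pathway by which a cell encloses and digests its own contents. Both of its 2 members were called higher late, of 2 entered, beside 5.09% of all features. These 2 loci were entered with earlier results of these data known, and they do not stand for the whole pathway. Cre16.g689650 (chromosome 16, 3814294 to 3816219) stood at 958, 855 and 1010 CPM in the nitrite libraries of 24 h, against 390, 425 and 427 CPM in the control libraries of 24 h. The 6 early nitrite libraries ran from 110 to 141 CPM and the 6 early control libraries from 98.9 to 184 CPM. The arms overlapped early and stood apart at 24 h, after a rise in both. The difference was 1.17 (SE 0.24, edgeR adjusted p = 0.003389).

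Cre02.g102350 (chromosome 2, 4743268 to 4746546), the other member, stood at 411, 364 and 354 CPM in the nitrite libraries of 24 h, against 154, 163 and 188 CPM in the control libraries of 24 h, with all 12 early libraries between 35.6 and 56.4 CPM. The difference was 0.99 (SE 0.20, edgeR adjusted p = 0.003471). Both members kept the call in all 18 fits that leave out a library. Without scaling neither passed the test, at 0.57 for Cre16.g689650 and 0.41 for Cre02.g102350 against a median of -0.59 over all genes.

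A gene of the triacylglycerol list, entered for enzymes of storage oil formation, followed the same course. Cre09.g405500 (chromosome 9, 6143460 to 6146395) stood at 78.4, 72.9 and 80.4 CPM in the nitrite libraries of 24 h, against 23.8, 29.8 and 41 CPM in the control libraries of 24 h. All 12 early libraries lay between 5.69 and 12 CPM. The difference was 1.08 (SE 0.26, edgeR adjusted p = 0.009984), and the call ended without scaling (0.55, edgeR adjusted p = 0.335). The other 2 tested members of 3 differed by 0.16 and 0.07 and were not called. The list thus had 1 of 3 tested members called (33.3%, beside 9.81% of all features).

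The chaperone list, entered for proteins that assist folding, had 2 of 20 members called, 1 in each direction, a share of 10% beside 9.81% over all features. By 24 h 32.9% of all features were called lower in the nitrite arm and 24.1% in the control arm. Most chaperone members fell in darkness whether or not nitrite was present, with 15 of 20 called lower at 24 h in each arm. Cre03.g145787 (chromosome 3, 640717 to 642631) did the opposite, at 211, 202 and 192 CPM in the nitrite libraries of 24 h, against 32.3, 46.3 and 65.8 CPM in the control libraries of 24 h. Its 12 early libraries lay between 2.33 and 7.16 CPM. The difference was 1.87 (SE 0.36, edgeR adjusted p = 0.002708), and it was called in all 18 fits that leave out a library and without scaling.

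The lower member, Cre12.g505850 (chromosome 12, 2533877 to 2535922), stood at 6.46, 3.07 and 2.83 CPM in the nitrite libraries of 24 h, against 14.6, 11.3 and 10.1 CPM in the control libraries of 24 h. Its early nitrite libraries ran from 35 to 51.1 CPM and its early control libraries from 44.4 to 83.6 CPM. The difference of -1.11 (SE 0.32, edgeR adjusted p = 0.02921) ended as a call without nitrite 24 h number 2 or 3 (0.119 each) or control 24 h number 1 or 2 (0.108 and 0.0581). With the 3 outlying libraries left out, 5 of 20 members were called (25%, beside 15.8% of all features), 3 higher and 2 lower, and without scaling 4.

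The list of oxidative stress and glutathione, whose enzymes break down peroxides and superoxide, had 2 of 16 members called (12.5%, beside 9.81% of all features). They were 1 in each direction, and 3 members were called with the 3 outlying libraries left out (18.8%, beside 15.8% of all features). Cre10.g456750 (chromosome 10, 5180737 to 5183457) rose in the nitrite arm alone. It stood at 26.4, 17 and 16.8 CPM in the nitrite libraries of 24 h, against 7.84, 7.58 and 6.4 CPM in the control libraries of 24 h, with all 12 early libraries between 4.45 and 9.5 CPM. The difference was 1.34 (SE 0.28, edgeR adjusted p = 0.0039), and 0.80 without scaling (edgeR adjusted p = 0.193). Cre06.g262100 (chromosome 6, 1759671 to 1765361) stood at 4.3, 2.05 and 3.78 CPM with nitrite at 24 h, against 10.3, 9.33 and 7.49 CPM without, and its early libraries of both arms ran from 3.64 to 9.63 CPM. Its difference of -1.23 (SE 0.35, edgeR adjusted p = 0.02615) ended as a call without nitrite 24 h number 2 (0.115) or control 24 h number 1 or 2 (0.0834 and 0.0661).

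Most light-harvesting genes fell in darkness in both arms. The light-harvesting list, proteins that bind chlorophyll around the photosystems, had values from -1.38 to 2.2 and a median of 0.23. Of its 20 members 0 were called, beside 9.81% of all features. With the 3 outlying libraries left out, 2 were called (10%, beside 15.8% of all features), 1 in each direction, and without scaling 1. Of the 20, 19 fell by 24 h in the nitrite arm and 18 in the control arm, with median changes of -2.87 with nitrite and -3.05 without. Over all features 32.9% were called lower in the nitrite arm and 24.1% in the control arm, with median changes of -0.06 and -0.01. The photoprotection list had 1 tested member of 5, not called, with 0 reads in the nitrite group of 24 h and 3 in the control group. The carbon dioxide concentration list, entered for carbonic anhydrases and bicarbonate transporters, had 0 of 8 tested members called of 14 entered, and a median of -0.39.

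The Calvin cycle list, entered for enzymes that fix carbon dioxide into sugars, had 1 of 15 members called (6.67%, beside 9.81% of all features). Cre08.g380250 (chromosome 8, 4199540 to 4201612) stood at 2020, 1870 and 1730 CPM in the nitrite libraries of 24 h, against 713, 644 and 1120 CPM in the control libraries of 24 h. Early values ran from 416 to 534 CPM with nitrite and from 395 to 744 CPM without. The arms overlapped early and stood apart at 24 h, and the difference was 1.36 (SE 0.29, edgeR adjusted p = 0.0056), or 0.75 without scaling, still a call (edgeR adjusted p = 0.0459).

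Lists of dark carbon metabolism held no call in all libraries. Of the glyoxylate and acetate list, entered for isocitrate lyase, malate synthase and enzymes that bring acetate into this pathway, 0 of 6 were called. Its values had a median of 0.59, and 5 of 6 were above 0, as were 6326 of all 13564 tested features. The members nearest to the threshold, chosen after their values were seen, were Cre06.g282800 and Cre03.g144807. Cre06.g282800 (chromosome 6, 5284370 to 5288359) stood at 3840, 3670 and 3480 CPM in the nitrite libraries of 24 h, against 951, 1020 and 1910 CPM in the control libraries of 24 h. Early values ran from 784 to 1300 CPM with nitrite and from 476 to 940 CPM without, and the early effect of 0.61 was called (edgeR adjusted p = 0.04668). Its difference was 0.89 (SE 0.31, edgeR adjusted p = 0.06913).

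The other, Cre03.g144807 (chromosome 3, 356536 to 361981), had 836, 813 and 868 CPM in the nitrite libraries of 24 h, against 221, 253 and 461 CPM in the control libraries of 24 h, and a difference of 0.79 (SE 0.27, edgeR adjusted p = 0.06909). In both genes control 24 h number 3 was the highest control library, far from the other 2. With the 3 outlying libraries left out, 4 of the 6 members were called (66.7%, beside 15.8% of all features), all higher late, and DESeq2 called 2. The alternative oxidases, which let mitochondrial electrons reach oxygen without the cytochrome pathway, had 0 of 2 called, at 0.50 and 1.11. The fermentation list had 0 of 9 tested members called and a median of -0.52. Of its values 8 of 9 were below 0, as were 7238 of all 13564 tested features. The sulfur assimilation list had 0 of 6 called and a median of -0.01, and 1 called without the 3 outlying libraries, lower late, and 1 without scaling.

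The tubulin list, entered for the proteins of microtubules and flagella, had 1 of 4 members called (25%, beside 9.81% of all features). All 4 values were above 0, from 0.85 to 1.67, as were 6326 of all 13564 tested features. Cre12.g549550 (chromosome 12, 8332995 to 8335438) stood at 144, 55.9 and 51.5 CPM in the nitrite libraries of 24 h, against 30.8, 54.1 and 50.9 CPM in the control libraries of 24 h. Early values were 203, 68.3 and 144 CPM at 15 min and 87.9, 144 and 56.4 CPM at 3 h with nitrite, against 201, 200 and 185 CPM and 173, 186 and 250 CPM without. Nitrite 24 h number 1 stood far above the control libraries, number 2 just above them and number 3 among them, and early number 2 again lay with the other time. The difference of 1.67 (SE 0.52, edgeR adjusted p = 0.04969) was called in 6 of the 18 fits that leave out a library, was 1.07 (0.172) without nitrite 24 h number 1, and was 0.99 (0.196) without scaling. Without the 3 outlying libraries all 4 tubulin members were called higher late, beside 15.8% of all features called in either direction. The other 3, named after their values were seen, then differed by 0.99 in Cre03.g190950, by 0.86 in Cre04.g216850 and by 0.92 in Cre12.g542250.

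**Figure D4:**
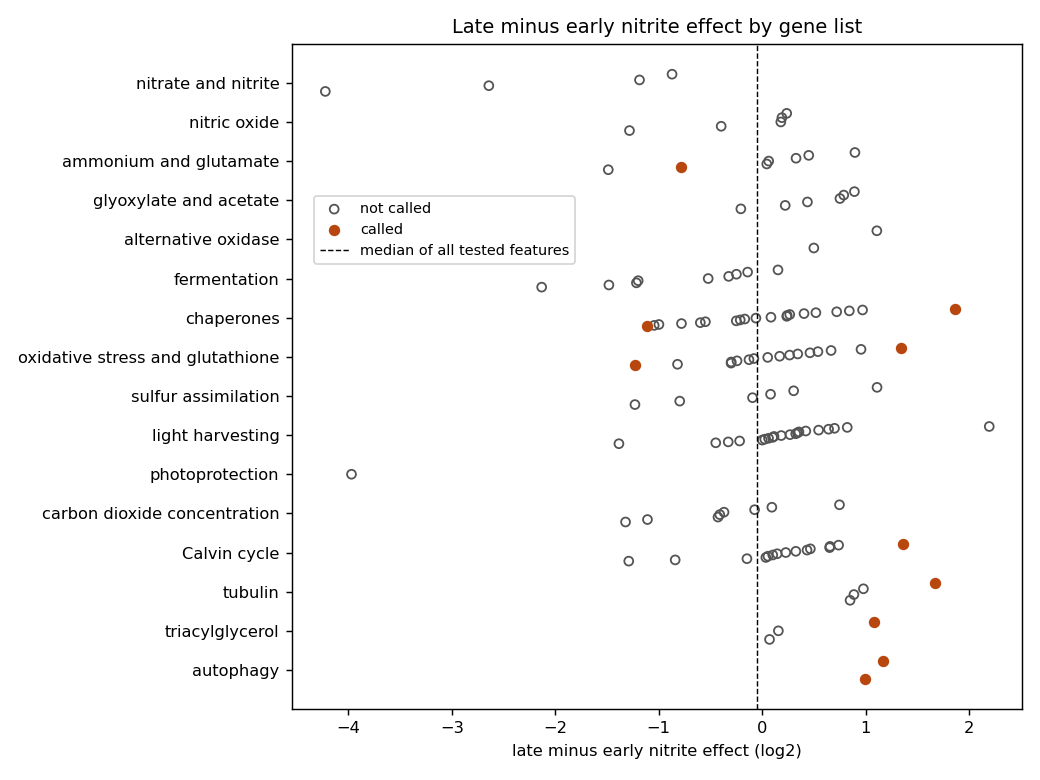
Late minus early nitrite effect (log2) of each tested member of the 16 lists, 1 list per line. Filled points were called (edgeR adjusted p under 0.05), open points were not, and the dashed line is the median of all tested features, -0.05. Both autophagy members and all 4 tubulin members lie right of the line, 1 filled point stands on either side in the chaperone and oxidative stress lists, and the light-harvesting list holds no filled point.

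Of 25 named organelle genes 3 had enough reads to test in these libraries of polyadenylated RNA, and none was called. They are mitochondrial genes for apocytochrome b (cob) and subunits of complex I (nad4 and nad5), parts of the respiratory chain. The nad4 transcript stood at 71.4, 76.2 and 49.7 CPM in the nitrite libraries of 24 h, against 50.4, 45.4 and 53.1 CPM in the control libraries of 24 h. Early values ran from 156 to 202 CPM with nitrite and from 153 to 540 CPM without. Its difference was 1.09 (SE 0.36, edgeR adjusted p = 0.0596), that of cob 1.2 (SE 0.63, edgeR adjusted p = 0.245) and that of nad5, named after its values were seen, 3.27 (SE 1.31, edgeR adjusted p = 0.1291). The library labelled control 3 h number 3 was the highest in each, at 540 CPM for nad4, 238 CPM for cob and 97.1 CPM for nad5. Without the 3 outlying libraries nad4 differed by 0.97 (edgeR adjusted p = 0.067), cob by 0.66 (0.315) and nad5 by 1.92 (0.206).

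Called genes were found on every chromosome, from 8.15% to 11.5% of the tested genes of each, and on 7.34% of those on unplaced scaffolds. Of 10995 pairs of tested neighbours, 141 had both genes called, 100 of them in the same direction and 41 in opposite directions. Of the neighbours of called genes 12.8% were called, beside 9.81% over all features. Calls were more frequent among abundant transcripts, at 16.7% in the highest of 4 equal bins of mean level and 3.24% in the lowest, with a median SE of 0.255 in the highest and 0.575 in the lowest. Genes higher late had a median level of 4.29 log2 CPM, genes lower late of 3.43 and all tested features of 2.93. Their median gene lengths were 4146.5 bases for higher, 5383.5 for lower and 4687.5 for all.

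The longest run of adjacent called genes in 1 direction, singled out after its values were seen, lay on chromosome 17 from 3368170 to 3389952 and held 6 genes, all higher late. They differed by 1.07 in Cre17.g723650, 1.5 in Cre17.g723700, 1.32 in Cre17.g723750, 1.3 in Cre17.g723800, 0.81 in Cre17.g723850 and 0.84 in Cre17.g723900. Cre17.g723700 stood at 66, 78.2 and 74.6 CPM in the nitrite libraries of 24 h, against 18, 19.8 and 23.6 CPM in the control libraries of 24 h, with all 12 early libraries between 5.19 and 11.6 CPM. In all 6 the nitrite libraries of 24 h stood above the control libraries of 24 h, and both arms rose in darkness. Calls of Cre17.g723700 and Cre17.g723850 held in all 18 fits that leave out a library, and those of the other 4 ended without control 24 h number 1 and without control 24 h number 2, and some without other libraries (edgeR adjusted p up to 0.112). None of the 6 was called without scaling, where Cre17.g723700 had an edgeR adjusted p of 0.116. Whether reads are shared between these neighbours was not tested.

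The choice of early time changed the count more than the direction. With 15 min alone as the early effect 936 genes were called, and with 3 h alone 750, of which 852 and 709 were among the 1330. The nitrite effects at 3 h and 15 min themselves differed for 0 genes by edgeR, 0% of those tested, with 814 at an unadjusted p under 0.05 and 3 called by DESeq2. Without nitrite 15 min number 2 and nitrite 3 h number 2 the count was 7. These counts do not show that the early effects were alike.

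Leaving out any library in turn gave 700 to 1623 calls, and 544 genes were called in all 18 of these fits, 313 higher and 231 lower. The count fell to 700 without control 24 h number 1, to 719 without control 24 h number 2, to 864 without nitrite 24 h number 2 and to 872 without nitrite 24 h number 1. Without the 3 outlying libraries 2166 genes were called (15.8%), 1257 higher and 909 lower, and 1296 of the 1330 were among them. All 30 called genes named above were called in that fit. The 3 libraries were left out because they stood apart, so this is no separate support for the calls. In all 18 fits that leave out a library 22 of the 30 were called, and the naming rule asked this of some of them. Without scaling 17 of the 30 were called, and the 13 that ended were all higher late. In all libraries, 275 genes differed by more than 1.5-fold in a test against that size (edgeR glmTreat), 148 higher and 127 lower.

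**Figure D5:**
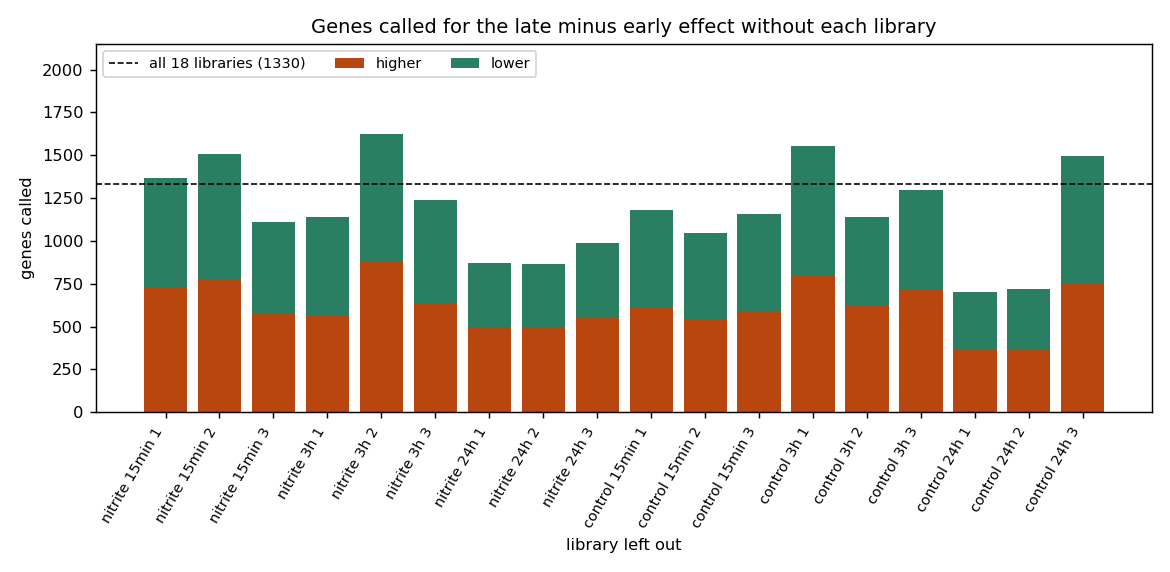
Number of genes called for the late minus early effect (edgeR adjusted p under 0.05) when the library named on the horizontal axis is left out, as stacked bars of genes higher (orange) and lower (green). The dashed line marks the 1330 calls with all 18 libraries. The bars are lowest without control 24 h numbers 1 and 2, at 700 and 719, and highest without nitrite 3 h number 2, at 1623.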

How the data were processed

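Per the labels, polyadenylated RNA was made into stranded libraries, and the submitters' processing notes name TopHat2 2.0.13 for alignment and HTSeq for counting. For the genome build and the counting options, the sources used here name none. Each deposited table holds raw counts, whole reads assigned to a gene without normalisation, and its 5 summary lines per library were left out. They put 0.892% to 1.67% of reads outside genes, and 16.7% to 36.5% had more than 1 alignment, so genes with near-identical copies or overlaps are uncertain.

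Features were filtered with filterByExpr (minimum count 10), scaled by TMM and fitted in edgeR 4.0.16 (R 4.3.3) with a mean for each of 6 groups, 12 residual degrees of freedom and robust quasi-likelihood F tests. A gene is called, higher or lower where its Benjamini-Hochberg adjusted p over 13564 features was under 0.05. SE is the log2 value over the square root of F. CPM values are TMM scaled. Alternatives used limma 3.58.1 and DESeq2 1.42.0. In each of 18 replicate pairs the counts differed beyond sampling noise (chi-square per degree of freedom from 4.02).

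Named are the 2 highest and 2 lowest called genes that kept the call in every fit leaving out a library, with mean log2 CPM not under 1, the extremes of each pattern under the same conditions, tested members of the nitrate and nitrite and nitric oxide lists, at most 4 called members of other lists, and the 2 organelle genes with most reads. Others, nad5 among them, are said to have been named after their values were seen. Genes and lists were chosen with earlier results of these data known. Coordinates come from RefSeq's gene table (assembly Chlamydomonas_reinhardtii_v5.5), which 17738 of 17741 nuclear identifiers matched. Protein families were not analysed here. The test was checked on simulated counts.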

Additional observations from a re-analysis of the deposited data

Results flagged for a closer look

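The nitrite effect differed between late and early times by the test of the difference itself for 1330 genes. Among the named genes, the late minus early effect (log2) was higher in Cre05.g238400 (5.05), Cre04.g217951 (4.07), Cre05.g238450 (4.01), Cre10.g428966 (2.78), Cre10.g452100 (2.53), Cre03.g145787 (1.87), Cre03.g145727 (1.68), Cre12.g549550 (1.67), Cre10.g447050 (1.41), Cre08.g380250 (1.36), Cre10.g456750 (1.34), Cre16.g689650 (1.17), Cre09.g405500 (1.08) and Cre02.g102350 (0.994). It was also higher in the 6 neighbours on chromosome 17, at 1.07 in Cre17.g723650, 1.5 in Cre17.g723700, 1.32 in Cre17.g723750, 1.3 in Cre17.g723800, 0.808 in Cre17.g723850 and 0.838 in Cre17.g723900. It was lower in Cre08.g358560 (-4.34), Cre07.g325755 (-4.1), Cre10.g463370 (-2.71), Cre13.g590626 (-2.07), Cre07.g332500 (-1.78), Cre06.g262100 (-1.23), Cre12.g505850 (-1.11), Cre16.g689001 (-1.08), Cre02.g143400 (-0.858) and Cre02.g113200 (-0.782).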

How the results depend on the processing

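Of 1330 calls, 0 changed sign in any alternative tried, but only 724 of them were still called without scaling. The count of calls moved to 750 with 3 h alone as early, 2166 without the 3 outlying libraries and 2017 without nitrite 15 min number 2 and nitrite 3 h number 2. Genes higher late moved from 690 to 88 without scaling, 435 with 15 min alone, 415 with 3 h alone, and 1257 and 1112 without the 3 and the 2 libraries. Genes lower late moved from 640 to 1340 without scaling, 417 with flask as a random effect and 335 with 3 h alone. Calls of at least 2-fold, 958, became 275 in the test against 1.5-fold. Calls of the early effect, 798, moved to 123 without scaling, 4 with 15 min alone, 370 with 3 h alone and 509 with the early libraries of an arm as 1 group. Calls of the 3 h minus 15 min effect, 0 with an unadjusted count of 814, became 3 by DESeq2, 12 without the 3 libraries and 7 without the 2. The cause was not tested in any of these.

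With any library left out, calls ran from 700 to 1623, higher from 360 to 877, lower from 337 to 758, at least 2-fold from 591 to 1177, the late effect from 2852 to 4295, the early effect from 294 (without control 3 h number 2) to 1538 (without control 3 h number 1), the nitrite arm from 7652 to 8780, the control arm from 5397 to 6913 and 3 h minus 15 min from 0 to 4. Samples of the same number did not all deviate together: correlations of deviations were over 0.1 in 8 of 18 pairs within an arm (-0.845 to 0.591) and in 5 of 27 between arms. Between control 15 min and control 3 h all 3 were over 0.1 (0.567, 0.121 and 0.591), between nitrite 15 min and nitrite 3 h none. With the number as a replicate block 1198 genes were called, with the flask as a block 1144, 1087 of them among the 1330, and with the flask as a random effect 1060. Of the 30 called genes named, Cre12.g549550 was not called with the number (edgeR adjusted p = 0.0749) or the flask (0.0567) as a block, nor Cre17.g723650 with the flask (0.0719). Of the values of single genes, 648 kept direction and side of the threshold under another setting, 16 newly passed it and 39 no longer did. With a library left out the numbers were 795, 9 and 42. Depth limits the list members with few reads. The planned grouping by protein family was not run.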
